A study of Rattus norvegicus with 372 samples.

Results

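Sulfasalazine was applied at 100 µM for 24 h to primary hepatocytes of male Wistar rats in collagen sandwich culture, and gene expression was measured by TempO-Seq. The wells were chosen by chemical, concentration and assay, which left 6 wells of the whole transcriptome (WT) assay, 3 in each of 2 batches, out of 372 wells of both assays. They were compared with the vehicle wells (0.5% DMSO) of the same batch, 3 in batch 1 and 6 in batch 2. Sulfasalazine at 4 µM and WY14643 at 200 µM, with 6 wells each and the same time and vehicle, were used beside them. All groups shared a medium with insulin, dexamethasone and epidermal growth factor. Each batch held hepatocytes of 1 rat, so the 3 wells of a treatment were technical replicates, with 2 animals in all. In the fits of 1 batch and of the difference between batches, the p-values measure the spread between wells. In the fit over both batches, that spread also holds differences between the batches in the effects of the treatments. The same lysates were also run by the surrogate (ST) assay, which served as a check.

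Sulfasalazine is a drug for inflammatory bowel disease and rheumatoid arthritis in which 5-aminosalicylic acid and sulfapyridine are joined by an azo bond. It is known to inhibit the kinases that activate NF-kB. WY14643 is an agonist of PPARα, the nuclear receptor of the liver that is activated by fatty acids and raises transcription of genes for their transport and oxidation. In rodent liver, the classical target genes of PPARα code for microsomal omega-hydroxylases, peroxisomal and mitochondrial beta-oxidation enzymes and acyl-CoA thioesterases. Cholesterol synthesis genes are regulated separately by SREBP2, which is processed when sterol levels in the endoplasmic reticulum are low.

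The WT read depth of the treated and vehicle wells was between 5492941 and 8264980 reads. Levels are given in CPM, the reads of a gene scaled to one library size after TMM normalization. Pearson's r across genes of log2(CPM + 1) between wells of one group and batch was between 0.982 and 0.993 for the 100 µM and vehicle wells. In batch 1 the vehicle wells were on plate 4 and the sulfasalazine wells on plate 5, so that plate and treatment cannot be told apart there. In batch 2 the sulfasalazine wells were on plate 3 and the vehicle wells were split evenly between plates 2 and 3. The wells of both concentrations alternated in one row of a plate in each batch. The summed level of 7 hepatocyte markers (Alb, Ttr, Tf, Apoa1, Hnf4a, Asgr1 and Cps1) was 34840 to 39570 CPM with vehicle against 45910 to 49840 CPM with 100 µM sulfasalazine in batch 1, without overlap, and 37020 to 42460 against 41160 to 46420 CPM in batch 2, where the groups overlapped. The 14 Kupffer cell and leukocyte markers in the table summed to at most 181.6 CPM in any of these wells, and none of the 8 tested was called. The biliary marker Krt7 was at 0 in all of them. Among the stellate cell and fibroblast markers, 2 of 5 tested were lower (Reln, L2FC -0.78 ± 0.12 (SE), and Timp1, -0.49 ± 0.13), and the summed level of 11 markers was 620.1 to 642.8 CPM with vehicle against 457.4 to 546.2 CPM at 100 µM in batch 1, and 342.8 to 444.1 against 206.3 to 340.8 CPM in batch 2. In bulk wells, fewer cells of a type and less RNA per cell cannot be told apart. Neither endothelial marker tested (of 10 listed) was called, and 1 of 5 biliary and progenitor markers was lower.

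Of 10191 genes tested, 2173 (21.3%) were higher and 1999 (19.6%) were lower with 100 µM sulfasalazine than with vehicle over both batches, at an adjusted p under 0.05 in edgeR's quasi-likelihood test. A called gene is one that passed this threshold, and L2FC is the log2 fold change against vehicle unless stated otherwise. The changes were lopsided in size, with 441 of the higher genes and 157 of the lower genes changed at least 2-fold. The list of changed genes differed in length between the batches. In batch 1, 1075 genes (10.5%) were higher and 789 (7.74%) lower, and in batch 2, 2297 (22.5%) were higher and 2272 (22.3%) lower. A total of 1311 genes were called with the same sign in both batches, 774 higher and 537 lower, and 11 were called with opposite signs. These 1311 genes were 70.3% of the calls of batch 1 and 28.7% of the calls of batch 2.

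The largest rises included many genes of fatty acid oxidation. The 10 genes with the largest rise among those called in each batch, with a mean of at least 10 CPM in the higher group, were Acot1, Cyp4a1, Cyp4a2, Ehhadh, Fabp1, Cpt1b, RGD1565355, Acsl1, Acaa2 and Acot4, with L2FC between 4.06 and 8.26 apart from Acot1, which had nearly no vehicle reads. All 15 peroxisomal beta-oxidation genes and all 17 mitochondrial beta-oxidation and ketogenesis genes tested rose, with median L2FC of 2.33 and 1.85 where the median over all genes tested was 0.0005.

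Cyp4a1 and Cyp4a2 code for omega-hydroxylases of the endoplasmic reticulum, which oxidize the methyl end of fatty acids. Cyp4a1 was at 1.08, 1.61 and 2.39 CPM in the vehicle wells of batch 1 and at 681, 741 and 838 CPM in the 100 µM wells. In batch 2, the lowest, median and highest vehicle wells had 0.832, 1.64 and 2.31 CPM and the treated wells had 325, 381 and 398 CPM. The groups were far apart in both rats, with an L2FC of 8.26 ± 0.38 (SE; adjusted p = 4.96e-47). Cyp4a2 rose by a similar factor, with an L2FC of 8.04 ± 0.34. The 2 genes are close relatives, so reads may be shared between their probes and the split between them is uncertain. Of the 3 Cyp4f genes on the same list, Cyp4f17 (0.14) and Cyp4f4 (0.07) were not called and Cyp4f6 was lower (-0.32 ± 0.10).

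Peroxisomal beta-oxidation shortens very long chain fatty acids. Ehhadh, its bifunctional hydratase and dehydrogenase, was at 0.853, 1.96 and 3.00 CPM with vehicle and at 573, 648 and 806 CPM with 100 µM sulfasalazine in batch 1. In batch 2 it was at 0.713, 1.59 and 2.46 CPM (lowest, median and highest) with vehicle and at 273, 291 and 321 CPM with sulfasalazine. No treated well overlapped with a vehicle well, and the L2FC was 7.90 ± 0.26 (adjusted p = 6.70e-64). Ech1, an isomerase for unsaturated fatty acids, rose by 3.53 ± 0.16 on the log2 scale, and Pex11a, which takes part in peroxisome division, rose by 3.36 ± 0.19. The smallest rise on the list was that of Scp2, a sterol carrier and thiolase (0.58).

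Acyl-CoA thioesterases release free fatty acids from coenzyme A, and 6 of 7 tested rose, with a median L2FC of 2.65. Acot1 was nearly absent with vehicle, with 1 read in all vehicle wells of each batch together. It had 1707 reads in the 3 treated wells of batch 1 and 613 in those of batch 2, which gave depth-scaled ratios of 1710 (95% counting interval 307 to 67700) and 1240 (221 to 48900). Acot4 (4.06 ± 0.19), Acot3 (2.90 ± 0.17) and Acot2 (2.65) rose as well, while Acot13 was not called (0.40). The Acot genes are near copies of each other, so the share of reads of each is uncertain.

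In mitochondria, fatty acids enter by way of the carnitine palmitoyltransferases, and the largest rise of this list was that of Cpt1b, the isoform named for muscle. Cpt1b was at 3.75, 4.11 and 5.05 CPM with vehicle and at 73.7, 83.6 and 94.5 CPM with sulfasalazine in batch 1, and at 1.16, 2.96 and 3.62 CPM (lowest, median and highest) against 50.7, 64.7 and 75.9 CPM in batch 2. Its L2FC was 4.46 ± 0.19 (adjusted p = 3.62e-51), against 2.28 for the liver isoform Cpt1a. Acaa2, the thiolase of the last step, was with vehicle at 212, 212 and 240.3 CPM in batch 1 and 149.9, 167 and 184 CPM (lowest, median and highest) in batch 2. It rose to 3351, 3545 and 4092 CPM and to 2166, 2712 and 3676 CPM (L2FC 4.06 ± 0.16). The dehydrogenases Acadm (1.85), Acadvl (1.37) and Acadl (0.91) and both subunits of the trifunctional protein, Hadha (1.79) and Hadhb (1.45), rose less than Acaa2 by L2FC.

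**Figure D1:**
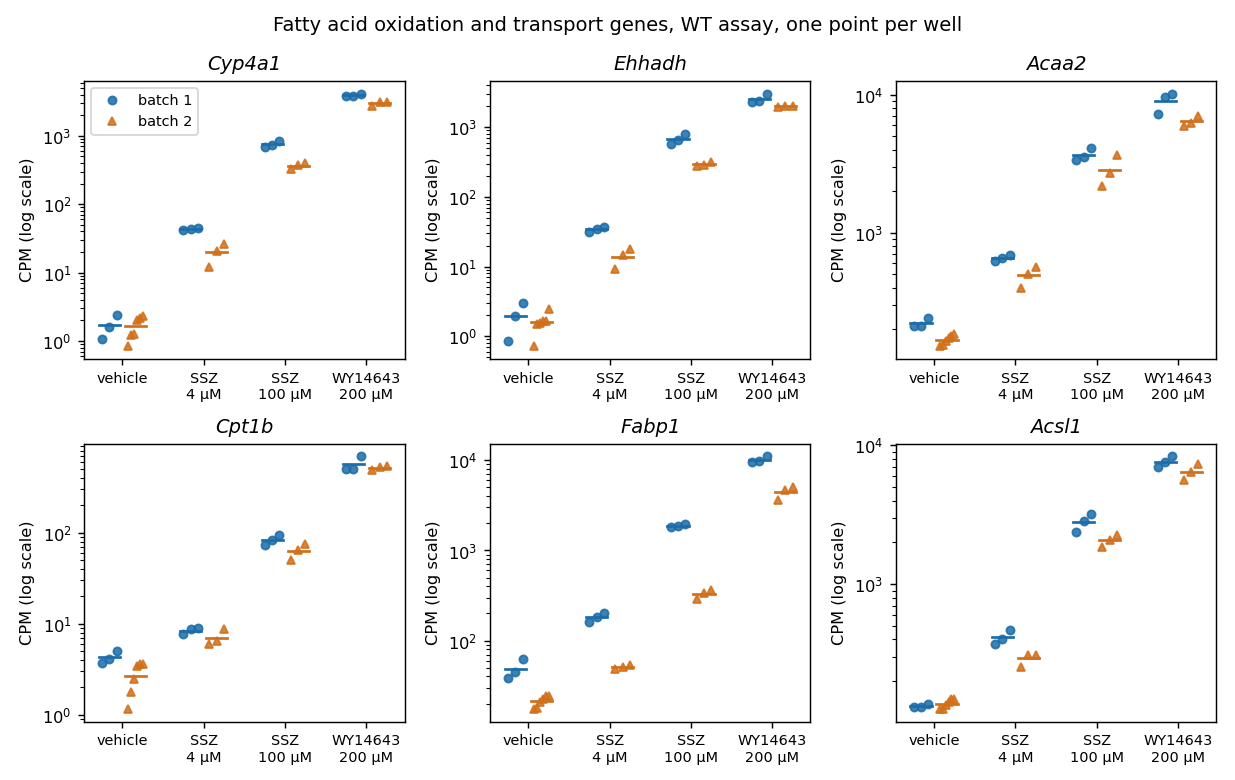
CPM by WT assay (log axis) of 6 genes of fatty acid oxidation and transport in single wells with vehicle, sulfasalazine (SSZ) at 4 and 100 µM and WY14643 at 200 µM. Points are wells, circles batch 1 and triangles batch 2, and bars are means. In every panel the 100 µM wells lie above all vehicle and 4 µM wells of their batch and below the WY14643 wells.

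Of the genes for fatty acid uptake and storage, 7 of 15 tested rose and none fell (1 without well 2 of 100 µM sulfasalazine in batch 1). Fabp1, the fatty acid-binding protein of liver, was at 38.7, 44.3 and 61.8 CPM with vehicle and at 1808, 1872 and 1983 CPM with sulfasalazine in batch 1, and at 17.4, 21.6 and 24.5 CPM (lowest, median and highest) against 292, 335 and 366 CPM in batch 2. The L2FC was 4.84 ± 0.28, with 5.31 in batch 1 and 3.94 in batch 2, a difference between the batches that was itself called (adjusted p = 0.00517). With the 4 µM wells in place of vehicle it was -0.66 and was not called (adjusted p = 0.258). The pyruvate dehydrogenase kinase Pdk4, with 3 and 7 reads in all vehicle wells of batches 1 and 2, was higher by ratios of 19.7 (95% counting interval 6.43 to 98.4) and 25.6 (11.9 to 65.6). G0s2, an inhibitor of triglyceride lipase, rose by 1.85 ± 0.15 and Plin2, a lipid droplet coat protein, by 1.85. Acsl1, which activates long chain fatty acids with coenzyme A, went from 130.5, 131 and 137 CPM to 2381, 2869 and 3199 CPM in batch 1, and from 126, 138 and 149 CPM (lowest, median and highest) to 1849.6, 2079.9 and 2278 CPM in batch 2 (L2FC 4.08 ± 0.17). RGD1565355, a gene the table lists by its locus name only, rose by 4.28 ± 0.28.

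PPARα binds DNA as a partner of RXR at a direct repeat with a spacing of 1 base. The element AGGNCA, repeated after any 1 base, was searched on both strands in the 250 bases before the start of each gene, as RefSeq gives them for the rat assembly GRCr8, and 123 of 33469 promoters (0.368%) held it. Of 59 genes tested on the lists for fatty acid oxidation, thioesterases and uptake, 47 had a promoter in the table and 1 held the repeat, Fabp1. The match is on the minus strand, between 77 and 65 bases before the start. The 250 bases are shown because Fabp1 was among the genes with the largest rise, with the match in capitals (GRCr8, chr4:104749090-104749339, plus strand).
Fabp1: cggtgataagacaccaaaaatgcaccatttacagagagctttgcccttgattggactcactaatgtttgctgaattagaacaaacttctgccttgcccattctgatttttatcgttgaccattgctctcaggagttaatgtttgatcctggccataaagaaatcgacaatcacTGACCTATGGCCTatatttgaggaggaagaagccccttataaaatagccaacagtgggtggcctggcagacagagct

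Genes of fatty acid and triglyceride synthesis rose as well, 14 of 18 tested with none lower and a median L2FC of 0.56. Scd, which inserts the double bond of oleate, was at 10.9, 18.9 and 21.4 CPM with vehicle and 142, 222 and 226 CPM with sulfasalazine in batch 1. It was at 9.12, 13.04 and 20.4 CPM (lowest, median and highest) against 128, 134 and 177 CPM in batch 2, an L2FC of 3.51 ± 0.18 (adjusted p = 7.21e-42). The elongase Elovl6 rose by 2.56 ± 0.32 and the lipogenic regulator Thrsp by 2.11 ± 0.16. Fasn, the fatty acid synthase, rose by only 0.40, and Acly, which supplies its acetyl-CoA, was not called (0.15).

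All 20 genes tested of cholesterol synthesis and SREBP2 regulation were higher, with L2FC between 0.14 (Srebf2 itself) and 2.02 (Insig1) and a median of 1.22. Insig1, the sterol-sensing protein that holds back SREBP processing, was at 623, 713 and 722 CPM with vehicle and at 1976, 2267 and 2639 CPM with sulfasalazine in batch 1, and at 540.0, 637 and 966 CPM (lowest, median and highest) against 3001, 3118 and 3668 CPM in batch 2. Fdps, the farnesyl diphosphate synthase, rose by 1.72 ± 0.18 and Sqle, the squalene epoxidase, by 1.67 ± 0.17. The rises were smaller in batch 1, where 14 of the 20 were called (median 0.78), than in batch 2, where 18 were called (median 1.59). The sterol response letters TCACNCCAC were in 326 of the 33469 promoters (0.974%) and in none of the 27 promoters found for the 38 genes tested of the synthesis lists.

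Enzymes of drug metabolism rose in part. Of 14 genes tested that respond to the receptors CAR and PXR, 9 rose and 1 fell, with a median L2FC of 1.15. None fell without well 2 or 3 of 100 µM sulfasalazine in batch 1, well 2 of it in batch 2 or vehicle well 3 of batch 2. Cyp2b2, the classical phenobarbital-induced enzyme, was at 2.05, 3.60 and 5.71 CPM with vehicle and 54.6, 72.3 and 76.2 CPM with sulfasalazine in batch 1, and at 0.825, 1.95 and 3.33 CPM (lowest, median and highest) against 23.6, 23.7 and 26.7 CPM in batch 2 (L2FC 3.91 ± 0.29). Its near copy Cyp2b1 had 9 and 10 reads in all vehicle wells of batches 1 and 2 and was higher by ratios of 9.36 (95% counting interval 4.7 to 21.2) and 6.45 (3.09 to 14.7). Reads of the Cyp2b genes may be shared. Nr1i3, which codes for CAR itself, rose by 2.07 ± 0.18, and Por, the electron donor of all microsomal P450 enzymes, by 1.33.

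Of 12 constitutive CYP2 genes, 7 rose and none fell, with Cyp2c13 (2.35 ± 0.33), Cyp2c22 (2.01 ± 0.21) and Cyp2d1 (1.94 ± 0.13) the largest. The ST assay did not show the change of Cyp2d1 (0.08). Of 9 targets of the aryl hydrocarbon receptor, 4 rose and 3 fell. The receptor's classical target, Cyp1a1, was at 25.8, 35.2 and 35.6 CPM with vehicle and 41.2, 53.7 and 65.0 CPM with sulfasalazine in batch 1, and at 27.2, 34.2 and 40.7 CPM (lowest, median and highest) against 51.2, 53.6 and 66.0 CPM in batch 2 (L2FC 0.79), while the receptor gene Ahr fell (-0.82). Only 1 fell when any well of 100 µM sulfasalazine in batch 2, or vehicle well 2 of either batch, was left out. Of 12 conjugating transferases, 4 rose and 2 fell, where 21.3% of all genes were higher and 19.6% lower. The largest rise was that of Sult1e1, the estrogen sulfotransferase, with 4.62 in batch 1 and 0.64 in batch 2, where it was not called. Papss2, which makes the sulfate donor, had the largest fall (-0.75 ± 0.13).

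Bile acid genes moved in both directions, with 2 of 7 higher and 3 lower, where 21.3% of all genes were higher and 19.6% lower. Akr1d1, a reductase of bile acid synthesis, rose by 2.48 ± 0.23, and the sterol hydroxylase Cyp27a1 fell by 0.64 ± 0.15 on the log2 scale. Of 6 uptake transporters, 3 rose, among them the monocarboxylate carrier Slc16a1 (1.04 ± 0.10), and the organic anion carrier Slc22a8 fell (-0.89 ± 0.14). Of 9 efflux pumps, 3 rose and 4 fell. The bile salt pump Abcb11 rose (0.79), and Abcb4 (-1.15 ± 0.40) and Abcc4 (-1.04 ± 0.27) were among those that fell. By the ST assay, Abcc4 was not called (-0.45).

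Genes of inflammatory signalling were mostly lower. Of 25 tested feedback genes, cytokines and chemokines of NF-kB, 13 fell and 3 rose, with a median L2FC of -0.44. The 3 that rose were Nfkbiz, Rel and Sod2 (1.29, 0.75 and 0.64). Cxcl16, a chemokine, was at 114, 117 and 128 CPM with vehicle and at 30.2, 52.6 and 61.3 CPM with sulfasalazine in batch 1. In batch 2 it was at 100.5, 123 and 137 CPM (lowest, median and highest) against 36.7, 37.6 and 38.0 CPM. The groups did not overlap, and the L2FC of -1.55 ± 0.12 (adjusted p = 1.09e-23) was the largest fall of the genes called in each batch with at least 10 CPM. Nfkbie, an inhibitor of NF-kB that NF-kB itself induces, went from 14.5, 18.6 and 19.5 CPM to 5.98, 8.04 and 8.23 CPM in batch 1 and from 16.5, 20.4 and 33.7 CPM (lowest, median and highest) to 6.56, 6.84 and 6.93 CPM in batch 2 (-1.51 ± 0.18). The chemokines Ccl20 (-1.47 ± 0.38) and Cxcl2 (-1.32) and the growth factor Csf1 (-1.12) fell too, whereas Nfkbia (-0.17), Tnfaip3 (-0.30) and Ccl2 (-0.44) were not called. The summed Kupffer cell and leukocyte markers overlapped between vehicle and treated wells in both batches. Those of stellate cells and fibroblasts were lower in the treated wells without overlap in both batches, as given above, and their part in the falls of this list was not tested.

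Other falls beyond this list were those of Pde4b, a cyclic AMP phosphodiesterase, Habp2, a serine protease of plasma, Ass1, which joins citrulline and aspartate in the urea cycle, Msc, a transcription factor, Gpx2, a glutathione peroxidase, Sh3pxd2b, an adaptor of cell protrusions, Lurap1l and AABR07014241.1. Pde4b was at 16.2, 19.9 and 23.4 CPM with vehicle and at 7.92, 8.39 and 9.68 CPM with sulfasalazine in batch 1, and at 17.5, 22.1 and 25.9 CPM (lowest, median and highest) against 6.12, 6.84 and 7.56 CPM in batch 2 (-1.53 ± 0.14). Ass1 was at 137, 166 and 182 CPM against 61.0, 79.4 and 82.0 CPM in batch 1 and at 251, 324 and 343 CPM (lowest, median and highest) against 97.0, 101 and 107 CPM in batch 2 (-1.47 ± 0.13). Both genes were separated from vehicle in every well. Gpx2 had a level in batch 1 (3.04, 4.60 and 4.68 CPM with vehicle) far below that in batch 2 (34.9, 39.2 and 41.7 CPM, lowest, median and highest), and fell in both, to 0.681, 0.808 and 1.45 CPM and to 16.0, 16.1 and 16.3 CPM (-1.42 ± 0.22). The L2FC of the remaining 5 were -1.53 ± 0.21 for Habp2, -1.51 ± 0.21 for AABR07014241.1, -1.45 ± 0.18 for Msc, -1.39 ± 0.12 for Sh3pxd2b and -1.38 ± 0.11 for Lurap1l.

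**Figure D2:**
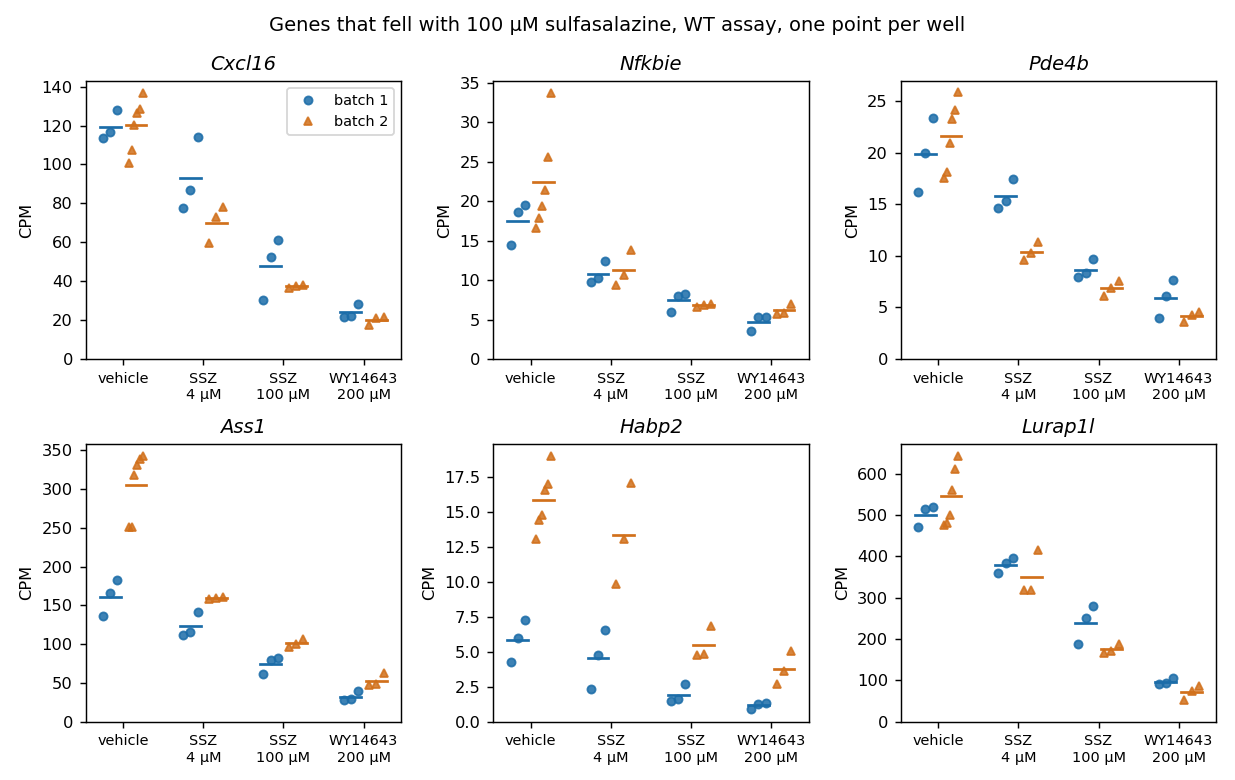
CPM by WT assay of 6 genes that fell with 100 µM sulfasalazine, in single wells with vehicle, sulfasalazine (SSZ) at 4 and 100 µM and WY14643 at 200 µM. Points are wells, circles batch 1 and triangles batch 2, bars are means and each axis starts at 0. All 100 µM wells lie below all vehicle wells of their batch, and Ass1 and Habp2 differ in vehicle level between the batches.

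Immediate early transcription factors, which cells induce within minutes of a signal, fell in 12 of 24 cases and rose in 3, with a median L2FC of -0.38. The largest falls were those of Jund (-1.07 ± 0.19), Fosl2 (-1.05 ± 0.16) and Atf3 (-1.04 ± 0.22), and the largest rise that of the orphan receptor gene Nr4a2 (1.26 ± 0.32). Fos (0.03), Jun (0.08) and Egr1 (0.04) were not called. Atf3 was at 136, 147 and 157 CPM with vehicle and at 51.5, 63.6 and 73.4 CPM with sulfasalazine in batch 1, and at 109.6, 130.1 and 169.7 CPM (lowest, median and highest) against 66.2, 75.6 and 76.4 CPM in batch 2. Over all genes tested, 19.6% were lower and 21.3% higher. Among 21 interferon-stimulated genes, Isg20 (-0.97 ± 0.16), Gbp2 (-0.93 ± 0.22) and the immunoproteasome subunit Psmb8 (-0.91 ± 0.13) were lower. In all, 7 of these 21 genes fell and 2 rose. Only 1 rose without well 1 of 100 µM sulfasalazine in batch 1, well 2 or 3 of it in batch 2, vehicle well 1 of batch 1, or vehicle well 2 or 6 of batch 2.

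Among 18 tested genes chosen for the known pharmacology of sulfasalazine, 5 were higher and 6 lower, with a median of -0.24. Of all genes tested, 21.3% were higher and 19.6% lower. Acat1, the mitochondrial acetoacetyl-CoA thiolase, had the largest change and works in ketone body and fatty acid metabolism, like the oxidation genes above. It was at 57.3, 63.1 and 77.5 CPM with vehicle and 1136, 1284 and 1289.6 CPM with sulfasalazine in batch 1, and at 39.7, 47.5 and 63.6 CPM (lowest, median and highest) against 484, 485 and 494 CPM in batch 2 (3.81 ± 0.20). The kinases and subunits of the NF-kB pathway moved in both directions, with Chuk, the alpha kinase, higher (1.01 ± 0.27) and Ikbkb, the beta kinase, lower (-0.72 ± 0.09). The NF-kB subunits Rela (-0.58 ± 0.09) and Nfkb1 (-0.40 ± 0.10) were lower. Abcg2, an efflux pump that carries sulfasalazine, was at 13.2, 14.8 and 16.9 CPM with vehicle and 18.9, 19.2 and 23.9 CPM with the drug in batch 1, and at 15.5, 21.0 and 24.9 CPM (lowest, median and highest) against 27.9, 35.7 and 36.7 CPM in batch 2, a rise of 0.63 ± 0.16. The pump Abcc2 fell, from 58.4, 58.5 and 67.8 CPM to 27.8, 39.5 and 45.7 CPM in batch 1 and from 35.8, 41.4 and 49.4 CPM (lowest, median and highest) to 18.6, 18.7 and 24.3 CPM in batch 2 (-0.80 ± 0.15). Of the pterin and acetylation genes, Gch1 (0.63 ± 0.15) and Nat1 (0.28 ± 0.08) were higher, and Spr (-0.10 ± 0.12) and Nat2 (0.05 ± 0.26) were not called. The purine enzyme Atic (-0.51 ± 0.16) and the transferase Gstp1 (-0.47 ± 0.18) were lower. The folate carriers Slc19a1 (-0.34 ± 0.16) and Slc46a1 (-0.39 ± 0.23), and Ptgs1 (-0.08 ± 0.28) and Pparg (-0.42 ± 0.21), were not called.

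Antioxidant genes did not move as a group. Of 24 genes that NRF2 regulates, 6 rose and 10 fell, and only 5 fell without well 3 of 100 µM sulfasalazine in batch 2. Prdx1, a peroxiredoxin, rose (0.96 ± 0.17), as did Gclm (0.75) and Hmox1 (0.67), while Nqo1 (-0.37), Gsr (-0.41) and Gss (-0.83) were lower. Of 18 glutathione S-transferases, 8 rose and 4 fell. The alpha class members rose, with Gsta5 (1.39 ± 0.28) and Gsta2 (1.26 ± 0.24) the largest, and those that fell were Gstm2, Gstm3, Gstm4 and Gstp1, between -0.55 and -0.41. Reads of near-identical members of both classes may be shared. Of 18 cystine, glutathione and transsulfuration genes, 7 rose and 5 fell, with Csad, an enzyme of taurine synthesis, up (1.86 ± 0.14) and the glutamine carrier Slc1a5 down (-1.04 ± 0.29). In batch 2 alone, 4 of these rose and 6 fell, and 5 transferases rose and 5 fell.

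Stress response lists were mixed as well, and their shares stand beside 21.3% of all genes higher and 19.6% lower. Of 30 targets of ATF4, 9 rose, led by Stc2 (1.59 ± 0.30), and 7 fell, led by Atf3, whereas in batch 2 alone 5 rose and 13 fell. Of 15 chaperones of the endoplasmic reticulum, 7 rose and none fell, with Hspa5 the largest (1.26 ± 0.32), while Xbp1 was not called (-0.21). Against the vehicle wells of the same plate, in batch 2, 4 of these chaperones were higher and 3 lower, with a median of -0.09. Against all vehicle wells of batch 2, 6 were higher and 1 lower. Of 12 heat shock genes, 2 rose and 5 fell, with the mitochondrial chaperone Hspd1 higher (1.05 ± 0.15) and Cryab lower (-1.14 ± 0.18). Only 1 rose without well 1 of 100 µM sulfasalazine in batch 1, well 2 of it in batch 2, vehicle well 2 of batch 1, or vehicle well 3, 4 or 6 of batch 2. Of 21 p53 targets, 9 fell and 3 rose, with Plk2 (-0.91 ± 0.13), Gadd45a (-0.75 ± 0.14) and Bax (-0.60) lower, whereas Cdkn1a (-0.31) and Mdm2 (-0.10) were not called. Of 21 cell cycle genes, 3 rose and 2 fell, with Aurka higher (1.00 ± 0.22) and Ccnd1 lower (-0.91 ± 0.23). Aurka was not called by the ST assay (0.35) or in batch 1 alone (0.27). The number of genes that rose was 7 without well 1 of 100 µM sulfasalazine in batch 1. This number was 5 without well 1 of that treatment in batch 2, and 5 or 6 without vehicle wells 1 or 3 of batch 1. The list went opposite ways in the batches, with 1 higher and 4 lower in batch 1 (median -0.38) and 7 higher and 2 lower in batch 2 (median 0.48). Of 20 folate and one-carbon genes, 5 rose, a share near that of all genes, with the mitochondrial folate carrier Slc25a32 the largest (1.42 ± 0.24), and 1 fell. That number of falls was 3 without well 3 of 100 µM sulfasalazine in batch 1 and 2 without well 2 of it, vehicle well 2 of batch 1 or vehicle well 1 or 2 of batch 2, and batch 2 alone had 2 rises and 4 falls.

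In the lists of coagulation, complement, acute phase, apolipoprotein, hepatocyte identity, glucose and urea cycle genes, more genes rose than fell over both batches. In batch 2 alone, 7 acute phase genes rose and 9 fell, and 8 urea cycle and amino acid genes rose and 9 fell. Hepatocyte identity genes had 7 rises and 4 falls in that batch, and apolipoprotein genes had 5 and 4. Against the vehicle wells of the same plate, in batch 2, 3 hepatocyte identity genes were higher and 5 lower, 4 apolipoprotein genes higher and 5 lower, 6 acute phase genes higher and 8 lower, and 5 urea cycle and amino acid genes higher and 8 lower. Of 24 coagulation genes, 15 rose, with Plg, the plasmin precursor (1.09 ± 0.21), and F9 (1.08 ± 0.16) among the largest, and 3 fell (5 without well 2 of 100 µM sulfasalazine in batch 1). Of 23 complement genes, 10 rose, led by Masp2 (1.24 ± 0.13), and 4 fell, led by C1r (-0.83). Of 26 acute phase genes, 10 rose, among them the 3 fibrinogen chains (0.50 to 0.67), and 6 fell, led by Apcs (-0.73 ± 0.19). Of 18 apolipoprotein and lipoprotein assembly genes, 7 rose, led by Mttp, the lipid transfer protein that loads VLDL (1.89 ± 0.10), and 2 fell, Apoa5 (-0.84) and Lipc (-0.41). Of 22 hepatocyte identity genes, 10 rose and 2 fell (1 when any single well of 100 µM sulfasalazine in batch 2 was left out), while albumin (Alb, 0.13) and Hnf4a (0.19) were not called.

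In glucose metabolism, 9 of 19 genes rose and 2 fell. The gluconeogenic enzymes Fbp1 (1.81 ± 0.11) and Pc (1.71 ± 0.16) rose, and the glucose transporter Slc2a2 (-1.29) and pyruvate kinase Pklr (-1.34) fell. Of 29 urea cycle and amino acid genes, 10 rose and 6 fell, with the aspartate carrier Slc25a13 up (1.67 ± 0.18) and Hal, which breaks down histidine, down (-1.20 ± 0.20). Of 22 hypoxia and glycolysis genes, 12 rose (7 without well 1 of 100 µM sulfasalazine in batch 2) and 1 fell. That 1 became 2 without well 2 of 100 µM sulfasalazine in batch 1, and none fell without well 1 or 3 of it or vehicle well 5 of batch 2. Vegfa, the endothelial growth factor, was at 132, 143 and 181 CPM with vehicle and at 304, 363 and 517 CPM with sulfasalazine in batch 1, and at 200.1, 270.0 and 315 CPM (lowest, median and highest) against 944, 951 and 1011 CPM in batch 2 (1.63 ± 0.18). Of 23 iron, heme and metallothionein genes, 9 rose, led by Tfr2 (0.81 ± 0.13), and 1 fell, the iron exporter Slc40a1 (-0.58). In batch 2, 5 rose and 3 fell against all vehicle wells, and 3 rose and 4 fell against those of the same plate. Of 15 circadian genes, 6 rose, led by Hlf (1.76 ± 0.23) and Rora (1.48 ± 0.18), and 2 fell (1 when any single well of 100 µM sulfasalazine in batch 2, well 3 of it in batch 1 or vehicle well 2 of batch 1 was left out).

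**Figure D3:**
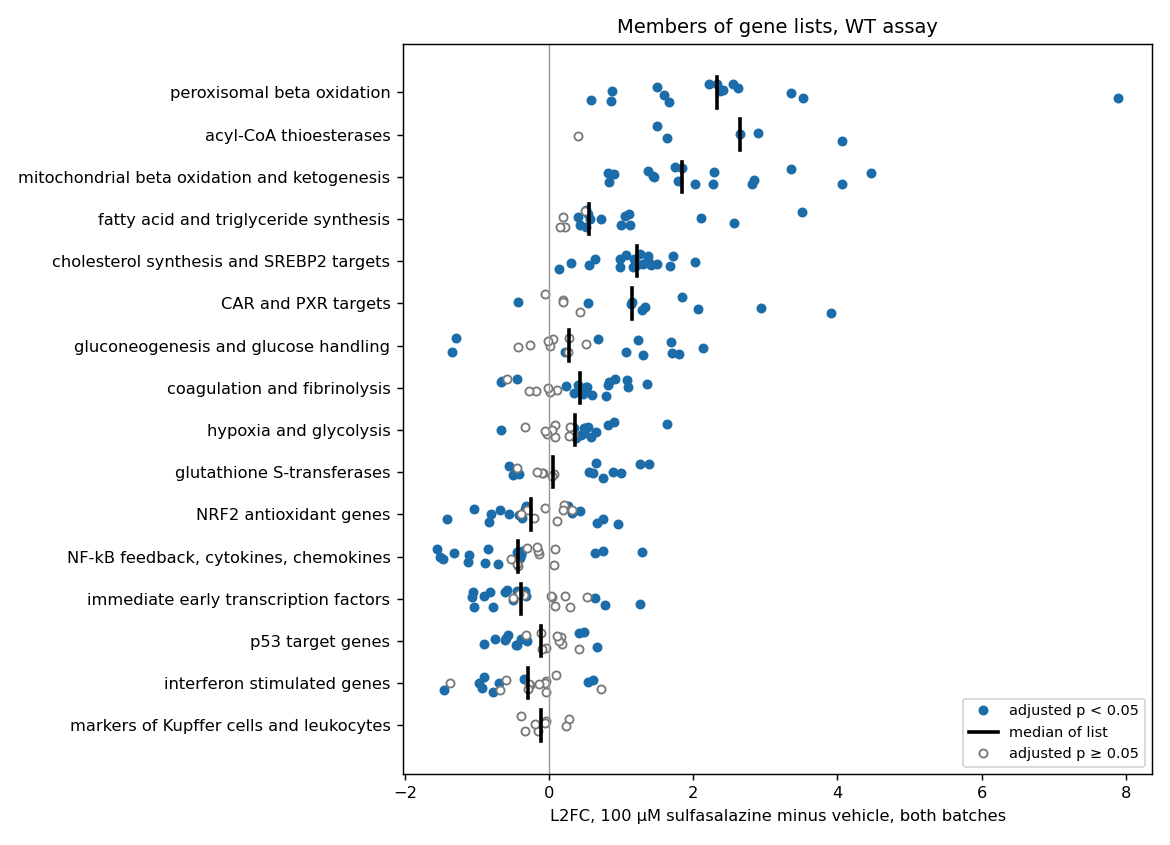
L2FC of 100 µM sulfasalazine against vehicle over both batches by WT assay for the tested members of 16 gene lists, 1 point per gene, filled where the adjusted p was under 0.05. Thick lines are list medians; Acot1, with 1 vehicle read per batch, is in the median but not drawn. The oxidation and cholesterol lists lie wholly to the right of 0, and the NF-kB and immediate early lists lie mostly to the left.

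The lower concentration, 4 µM, gave 953 higher (9.35%) and 818 lower (8.03%) genes against the same vehicle wells. The batches differed in these calls, with 127 higher and 40 lower in batch 1 and 673 higher and 506 lower in batch 2. Compared directly with 4 µM, on the same plate, 771 genes (7.57%) were higher and 539 (5.29%) lower at 100 µM. Of the genes higher than vehicle at 100 µM, 694 were also higher than at 4 µM, and 478 of the lower genes were also lower than at 4 µM. Cyp4a1 was already changed at 4 µM (L2FC 4.10) and was higher again at 100 µM by 4.16. The same held for Ehhadh (3.56 at 4 µM, and 4.34 between the concentrations). All 15 peroxisomal and all 17 mitochondrial oxidation genes were higher at 100 than at 4 µM, with median differences of 1.54 and 1.37, as were 18 of the 20 cholesterol genes, with a median of 0.66. At 4 µM itself, 8 of 15, 12 of 17 and 11 of 20 members of these lists were called higher than vehicle. Of the 25 NF-kB genes, 7 were lower than vehicle at 4 µM and 6 were lower at 100 than at 4 µM. Cxcl16 fell in steps, with an L2FC of -0.62 at 4 µM and a further -0.93 at 100 µM. For the immediate early list only 2 genes were lower at 100 than at 4 µM.

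WY14643 at 200 µM, on the same plates, gave the reference for a PPARα agonist, although the concentrations of the compounds differed. Against it, 1228 genes (12%) were higher and 1140 (11.2%) lower with 100 µM sulfasalazine. The oxidation genes were lower with sulfasalazine than with WY14643 in 13 of 15 peroxisomal cases (median difference -1.52), in 16 of 17 mitochondrial cases (-1.09) and in all 7 thioesterase cases (-1.86). Cyp4a1 had an L2FC of 10.94 with WY14643, and sulfasalazine was below it by a difference of -2.69. Among 30 treatments and controls, the mean level of Cyp4a1 with 100 µM sulfasalazine was the 4th highest in batch 1 and the 5th highest in batch 2. Of the 20 cholesterol genes, 1 was higher and 1 lower than with WY14643, with a median difference of -0.16, and the list had a median L2FC of 1.47 with WY14643. Of the NF-kB list, 12 of 25 were higher with sulfasalazine than with WY14643 and 2 lower, with a median L2FC of -0.81 with WY14643. Of the immediate early list, 10 of 24 were higher and 1 lower.

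Among genes that differed in each batch with a mean of at least 10 CPM in the higher group, the 5 furthest above WY14643 were Nnat (3.40), the heparin cofactor Serpind1 (2.57), Serpinb1a (2.51), Ankrd1 (2.43) and Calcb (2.38). Serpind1 did not pass the test against vehicle at 100 µM (-0.01 ± 0.16), with 206, 224 and 280.2 CPM with vehicle and 247, 247 and 251 CPM with sulfasalazine in batch 1, and its L2FC was -2.58 with WY14643. Furthest below WY14643 were the keratin Krt23 (-5.28), the fatty acid-binding protein Fabp3 (-5.21), Cyp2b2 (-4.79), Pdk4 (-4.53) and Acot1 (-4.03). Fabp3 was not called against vehicle with sulfasalazine (0.39 ± 0.50) and had an L2FC of 5.60 with WY14643, and Krt23 had 19 and 7 reads in the treated wells of batches 1 and 2 against 1 read in the vehicle wells of each. Of the lipid synthesis genes, Thrsp was higher with sulfasalazine than with WY14643, by 1.13.

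**Figure D4:**
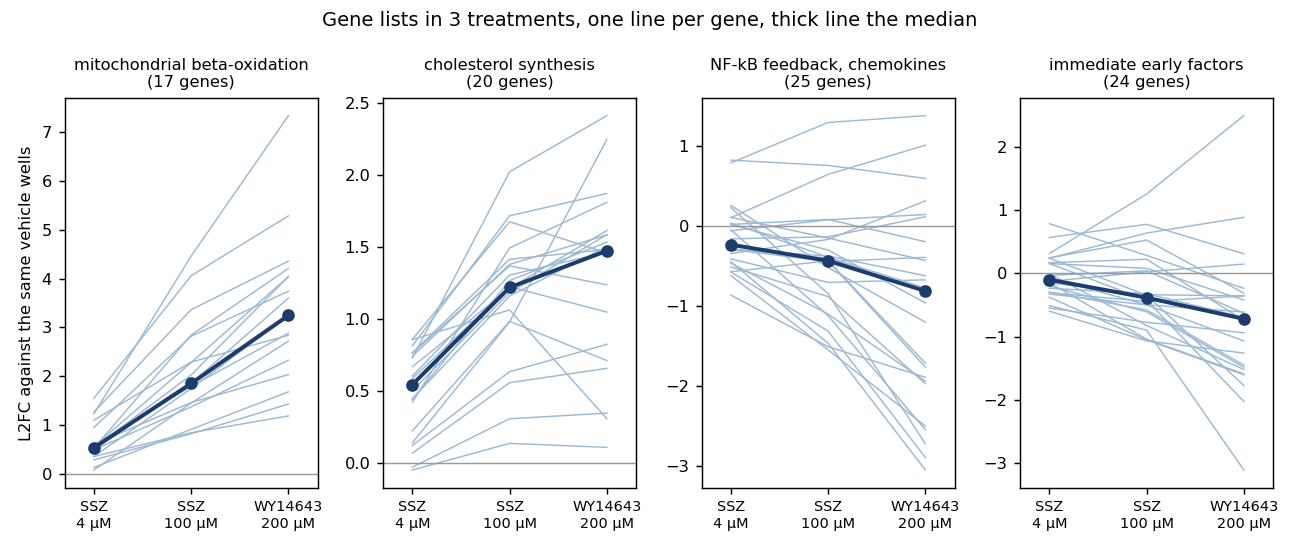
L2FC against the same vehicle wells over both batches for the members of 4 gene lists with sulfasalazine (SSZ) at 4 and 100 µM and WY14643 at 200 µM. Thin lines are genes, thick lines and points are medians, and the vertical scales differ between panels. The median of the mitochondrial list rises from 0.53 to 1.85 and 3.25, and that of the cholesterol list from 0.55 to 1.22 and 1.47.

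The change with 100 µM sulfasalazine differed between the batches for 260 of 10191 genes (2.55%), 122 with a larger L2FC in batch 2 and 138 with a smaller one. Cholesterol genes were larger in batch 2 in 8 of 20 cases, with a median difference of 0.77. With the 4 µM wells in place of vehicle, none of the 20 differed and the median difference was 0.26, and the number of genes over the whole table was 13. With only the vehicle wells on plate 3 in batch 2, the number of genes was 1040, and 12 of the 20 cholesterol genes were larger. Fatty acid oxidation went the other way, with 3 of 15 peroxisomal and 3 of 17 mitochondrial genes smaller in batch 2, among them Ech1 (4.09 in batch 1 and 2.87 in batch 2). With 4 µM as the reference, 2 and 1 genes of these lists were smaller, and Ech1 was not called (-0.95, adjusted p = 0.0787). Glutathione S-transferases were smaller in batch 2 in 4 of 18 cases, hepatocyte identity genes in 5 of 22 and ATF4 targets in 5 of 30, and 5 of 21 cell cycle genes were larger. With 4 µM as the reference, 1 of these transferases was smaller and no gene of the other 3 lists was called, and the median difference of the cell cycle list was -0.16 in place of 0.84. The part of plate and vehicle wells in these differences was not tested. Rat, plate, library construction and sequencing, which the paper says was done separately for each batch, cannot be told apart between the batches.

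Against the plate 3 vehicle wells alone, batch 2 showed 14 of 15 peroxisomal genes, 17 of 17 mitochondrial genes, 6 of 7 thioesterases and 18 of 20 cholesterol genes higher, with 12 of 25 NF-kB genes and 11 of 24 immediate early genes lower and 4 of each higher. Over all genes, 22.6% were higher and 22.7% lower in that comparison. Other lists had fewer rises or more falls than over both batches. Lipid uptake and storage genes had 5 higher and 4 lower, ATF4 targets 6 and 12, folate genes 3 and 5, glutathione S-transferases 6 and 5, cystine and glutathione genes 3 and 5, conjugating transferases 3 and 4, and coagulation genes 9 and 5. Efflux pumps, with 3 higher and 1 lower, and cell cycle genes, with 6 higher and 2 lower, went the other way. Of the counts of members higher or lower in each list, 29 moved by more than 1.5 times, or to or from 0, and 53 did not. In batch 2 with all its vehicle wells, 23 moved and 59 did not. There, lipid uptake and storage genes had 6 higher and 2 lower, ATF4 targets 5 and 13, and folate genes 2 and 4. Glutathione S-transferases had 5 and 5, cystine and glutathione genes 4 and 6, and conjugating transferases 3 and 2. Coagulation genes had 13 and 5, efflux pumps 4 and 4, and cell cycle genes 7 and 2. The part of the vehicle plate in these moves was not tested.

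Among the genes named for the difference between the batches, Sult1e1 had the most negative value of all genes called for it. Dbp, Bhmt and Aox3 are described with Sult1e1. Sult1e1 was at 0.714, 1.32 and 1.53 CPM with vehicle and at 27.5, 28.1 and 34.0 CPM with sulfasalazine in batch 1, whereas in batch 2 the vehicle wells had 2.57, 3.79 and 8.32 CPM (lowest, median and highest) and the treated wells 5.97, 6.84 and 8.70 CPM. The groups overlapped only in batch 2, and the difference in L2FC was -3.96 (adjusted p = 4.31e-12). The clock output gene Dbp rose from 21.999, 32.1 and 37.7 CPM to 93.0, 96.6 and 111 CPM in batch 1 and was at 18.7, 21.6 and 23.9 CPM (lowest, median and highest) against 25.1, 25.4 and 29.5 CPM in batch 2 (-1.40). Bhmt, which remethylates homocysteine, was at 104, 155 and 160.0 CPM with vehicle and 267, 404 and 484 CPM with sulfasalazine in batch 1, against 95.1, 135 and 162 CPM and 125, 131 and 161 CPM in batch 2 (-1.40). Aox3, an aldehyde oxidase, rose in both batches, by 2.04 in batch 1 and 4.34 in batch 2 (2.34). With the 4 µM wells in place of vehicle, the difference between batches was -1.24 for Sult1e1 (adjusted p = 0.136), -1.19 for Bhmt (adjusted p = 0.134) and 0.63 for Aox3 (adjusted p = 0.464), none of them called, whereas that of Dbp (-1.07, adjusted p = 0.0254) was.

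**Figure D5:**
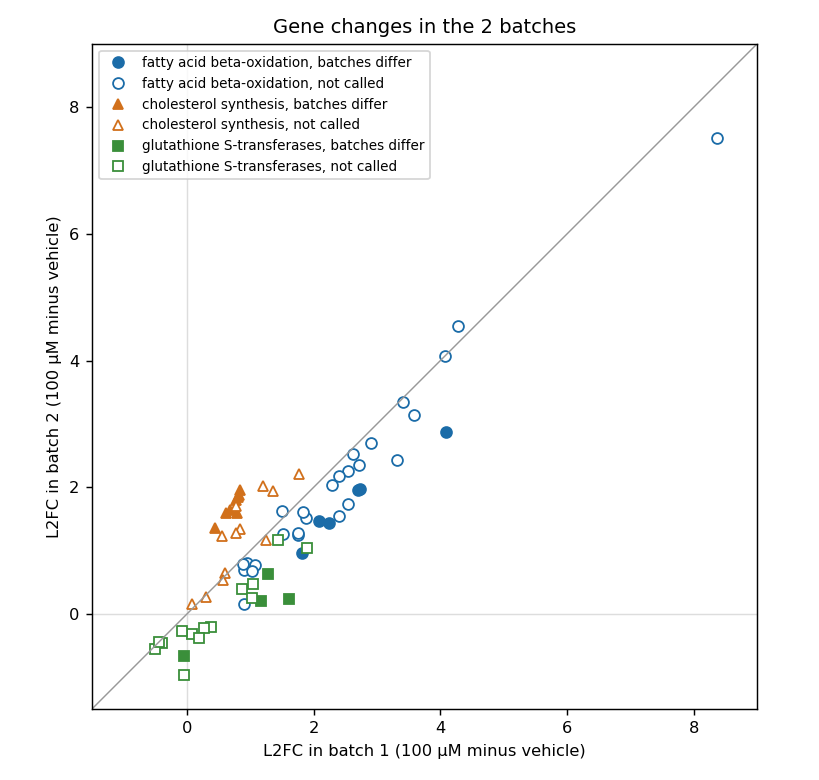
L2FC of 100 µM sulfasalazine against vehicle in batch 1 (x axis) and batch 2 (y axis) by WT assay for genes of fatty acid beta-oxidation, cholesterol synthesis and the glutathione S-transferases. Points are genes, filled where the difference between the batches was called, and the line marks equal changes. The 8 filled cholesterol genes lie above the line and the filled oxidation and transferase genes lie below it.

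By the ST assay, 354 of 1760 genes tested (20.1%) were higher and 357 (20.3%) lower. Of 1603 genes tested in both assays, 791 were called by WT and 656 by ST, and 555 were called by both, all with the same sign, which is 70.2% of the former and 84.6% of the latter. All 12 peroxisomal, 14 mitochondrial and 15 cholesterol genes on the ST assay were called higher, and 10 of 15 NF-kB genes were called lower. Cyp4a1 had an L2FC of 8.46 by ST, Ehhadh of 7.99, Insig1 of 1.87 and Cxcl16 of -1.45. Of the genes named by the rules below and tested by ST, 75 kept their side of the threshold. The other 7 were called by WT and not by ST, among them Cyp2d1, Abcc4, Aurka, Gstp1 and Nat1. The assays used lysate of the same wells, so the ST values repeat the measurement and not the treatment.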

How the data were processed

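In TempO-Seq, paired detector oligos are ligated on their transcript and sequenced, so that a read counts a ligated probe. The submitters' processing notes name STAR 2.5.3a and rat build rn6. For each assay, the authors deposited raw read counts by probe and well, without normalization. Here, probe counts were summed per gene symbol. All wells of an assay were fitted together with edgeR 4.0.16 in R 4.3.3 (TMM, batch as a term, quasi-likelihood test), keeping genes that averaged 10 counts or more, and p-values were adjusted by Benjamini-Hochberg over every gene tested. Each batch was also fitted by itself, and the difference between batches was tested as an interaction. CPM were computed from the deposited counts over the library size of each well after TMM normalization, taken over the genes kept. Genes with no vehicle well above 3 counts were given a ratio of counts with an exact interval, which covers counting error only, in place of L2FC. Genes of low abundance were limited by depth. Files were loaded with the R package data.table, version 1.17.8.

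Genes were described by 41 short lists of textbook pathways and cell type markers. Of their entries, 779 were matched by symbol, 10 by a RefSeq synonym, and 102 were not found. Named genes are up to 3 per list with the largest absolute L2FC and one sign in both batches, the 10 largest rises and falls called in each batch, the tested genes of sulfasalazine pharmacology, and the 5 largest in each direction for the batch difference and against WY14643, where these rises, falls and differences needed a mean of at least 10 CPM in the highest group compared; other genes named with their values were chosen after their values were seen. Some genes that the rule names are not reported here. The lists and rules were chosen with earlier results of these data known. Promoters came from RefSeq for GRCr8. Alternatives were DESeq2 1.42.0, RLE scaling, all genes with any count, calls that also had an absolute L2FC of 1 or more, vehicle wells of the same plate, only the compared wells, thinning to one depth, probes in place of genes, the ST assay, each batch alone and each well left out in turn. The fitting code was tested on simulated counts.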

Additional observations from a re-analysis of the deposited data

Results flagged for a closer look

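Among 149 named genes, 20 had a change with 100 µM sulfasalazine that differed between the batches in edgeR's interaction test, as did 260 genes over the whole table. The batches differ in rat, plate, library construction and sequencing, which cannot be told apart. As L2FC in batch 2 minus L2FC in batch 1, the difference was -3.96 for Sult1e1, -2.21 for Serpina6, -1.33 for Fabp1, -1.30 for Ldha, -1.19 for Cyp4a2, -1.18 for Ech1, -0.83 for Cebpa, -0.80 for Gadd45a, -0.66 for Tfrc and -0.62 for Gstz1. Of the genes named for this difference, it was -2.20 for AABR07029661.1, -1.70 for Pdxdc1, -1.40 for Dbp and -1.40 for Bhmt, and 2.91 for AABR07012039.1, 2.82 for Mast4, 2.52 for Pnma1, 2.34 for Aox3 and 2.17 for LOC500712. It was 1.46 for Calcb, which fell more in batch 1.

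In the 6 vehicle wells of batch 2, 7 of the 149 named genes had 1 well far from the others by Dixon's criterion, where chance flags about 1 in 20. The well stood at 0.167 CPM for Acot1 and at 0.167 CPM for Krt23, the other wells being at 0 for both. With all other wells at 0, any well with a read meets the criterion, so these flags say nothing about that well. For the other genes, the well stood at 4.49 CPM against 1.83 to 2.36 for Abcc4 and at 5.64 CPM against 2.08 to 3.28 for Slc1a5. It stood at 59.4 CPM against 42.5 to 47.7 for Sel1l and at 1.38 CPM against 0.143 to 0.536 for Fabp3. As the lowest well, it stood at 2.77 CPM against 4.26 to 5.10 for Aldh1l1.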

How the results depend on the processing

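No gene called over both batches took the opposite call under any alternative run. All 149 named genes kept their direction and side of the threshold with RLE size factors, and 148 with DESeq2. Of the genes higher with 100 µM sulfasalazine (2173), 441 had an absolute L2FC of at least 1. Batch 1 alone gave 1075 higher genes, of which 974 were among them, and the ST assay gave 354, of which 303 were. Of the lower genes (1999), 157 had that L2FC, and batch 1 alone gave 789, with 686 among them, and the ST assay 357, with 252. At an L2FC of at least 1, batch 1 had 550 calls (1864 without it), batch 2 had 944 (4569), 319 genes were called in both with one sign (1311), 94 differed between batches (260), 202 between 100 and 4 µM (1310) and 506 between sulfasalazine and WY14643 (2368). The batch difference was called for 13 genes with 4 µM wells as the reference and 1040 with same-plate vehicle wells. The comparison with 4 µM gave 610 calls in batch 2 alone, and that with WY14643 gave 1220 in batch 1 alone. Against same-plate vehicle wells in batch 2, the L2FC was -0.010 for Ldha, 0.97 for LOC500712 and -0.22 for Bhmt. In batch 1 alone, it was -1.75 for Mast4 and -0.60 for Pnma1. The causes were not tested. The ST assay had 1760 genes tested against 10191 by WT, and over the 1603 genes tested in both, WT called 791 and ST 656. Leaving out single wells gave 1830 to 2318 higher and 1658 to 2051 lower genes, 1357 to 1684 calls in batch 1, 3191 to 4590 in batch 2 and 966 to 1300 in both. No paired analysis was possible because the labels give the wells no replicate number, so batch entered as a term.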
